A study of Mus musculus with 60 samples.

Results

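The potassium channel genes of the mouse hippocampus were followed after a single dose of an NMDA receptor antagonist. The set held every gene whose symbol starts with *Kcn* in the platform annotation, 88 genes with 173 probes, among 19057 genes with a probe of 1 symbol and 45281 probes in all. Each gene was represented by its brightest probe, and 51 of the 88 genes had other probes too. The mouse RefSeq annotation holds 98 genes with such a symbol, and 10 of them were not analysed here.

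The transcripts of the hippocampus were read with Illumina MouseWG-6 v2 bead arrays in C57BL/6J males 8 to 10 weeks old. Mice were injected into the peritoneum with ketamine at 20 mg/kg, with memantine at 15 mg/kg, with PCP (phencyclidine) at 5 mg/kg or with saline as the vehicle, and naive mice received no injection. Tissue was taken at 1, 2, 4 and 8 h, and each of the 20 groups had 3 arrays, each with the pooled RNA of 2 mice. The doses of the 3 drugs differ, and all 3 drugs are compared with the same saline arrays, so their values are given side by side and the drugs are not compared with each other.

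Potassium channels let potassium leave the cell, set the resting potential and end action potentials. Voltage-gated channels open on depolarization, calcium-activated channels open after calcium entry, inward rectifiers stabilize the resting potential and include the targets of Gi-coupled receptors, and two-pore channels carry leak currents. Accessory subunits do not form a pore, but alter the gating, assembly or surface level of the channels they bind. In the hippocampus these channels shape dendritic excitability, firing and the clearance of potassium by glia.

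Values are log2 intensities after background correction and quantile normalization, and a difference of 1 stands for a 2-fold change. The arrays were assigned to 10 slides of 6 by runs of 6 consecutive samples, as the sample titles and source names give no slide. On 7 arrays (1 of memantine, 3 of PCP, 2 of saline and 1 of naive mice), all on 2 slides, background was high, with a 5th percentile of intensity of 314.1 to 859.5 against 99.71 to 240.1 on the other 53 arrays. The 95th percentile of intensity was 4.28 to 7.75 times the 5th on these 7 arrays and 12.3 to 32.1 times on the others. One ketamine array (2 h, replicate 2) had a mean of 11.75 over 6 markers of the striatum (a brain region outside the hippocampus), while the second highest array of the series had 9.21. Markers of the choroid plexus varied between arrays in every condition and are given beside *Kcne2*. Markers of pyramidal and granule cells, the principal neurons of the hippocampus, averaged 11.06 to 11.69 on single arrays.

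Of the 88 genes, 64 had a mean signal above 6.94, the median of all probes, including 19 of 25 voltage-gated pore genes, 6 of 10 silent voltage-gated subunits, 6 of 8 calcium- and sodium-activated pore genes, 9 of 13 inward rectifiers, 9 of 14 two-pore channels and 15 of 18 accessory genes. The 18 accessory genes include the RNA genes *Kcnq1ot1* and *Kcnmb4os1*, which were counted with them and are not subunits. Probes differ in efficiency, so these signals do not rank the genes by transcript amount. The mean signal was 12.55 for *Kcnc4*, a fast-inactivating Kv3 channel, 12.13 for *Kcna6*, a Kv1 channel, and 11.60 for *Kcnd2*, the pore of the dendritic A-type current of pyramidal cells. It was 10.82 for *Kcnf1*, a silent subunit that acts only in assemblies with other Kv subunits, and 10.63 for *Kcnma1*, the BK channel gated by calcium and voltage. Among inward rectifiers it was 10.05 for *Kcnj4* (Kir2.3), 8.61 for *Kcnj6* (GIRK2) and 8.29 for *Kcnj3* (GIRK1), the G protein-gated channels that carry inhibitory receptor currents. Two-pore channels included *Kcnk1* (TWIK-1) with 11.94 and *Kcnk2* (TREK-1, opened by stretch and lipids) with 9.71. The beta subunits *Kcnab2* and *Kcnab1* of Kv1 channels had 14.26 and 11.73, and *Kcnip3*, a calcium-binding partner of Kv4 channels that is also known as the transcriptional repressor DREAM, had 10.32.

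**Figure D1:**
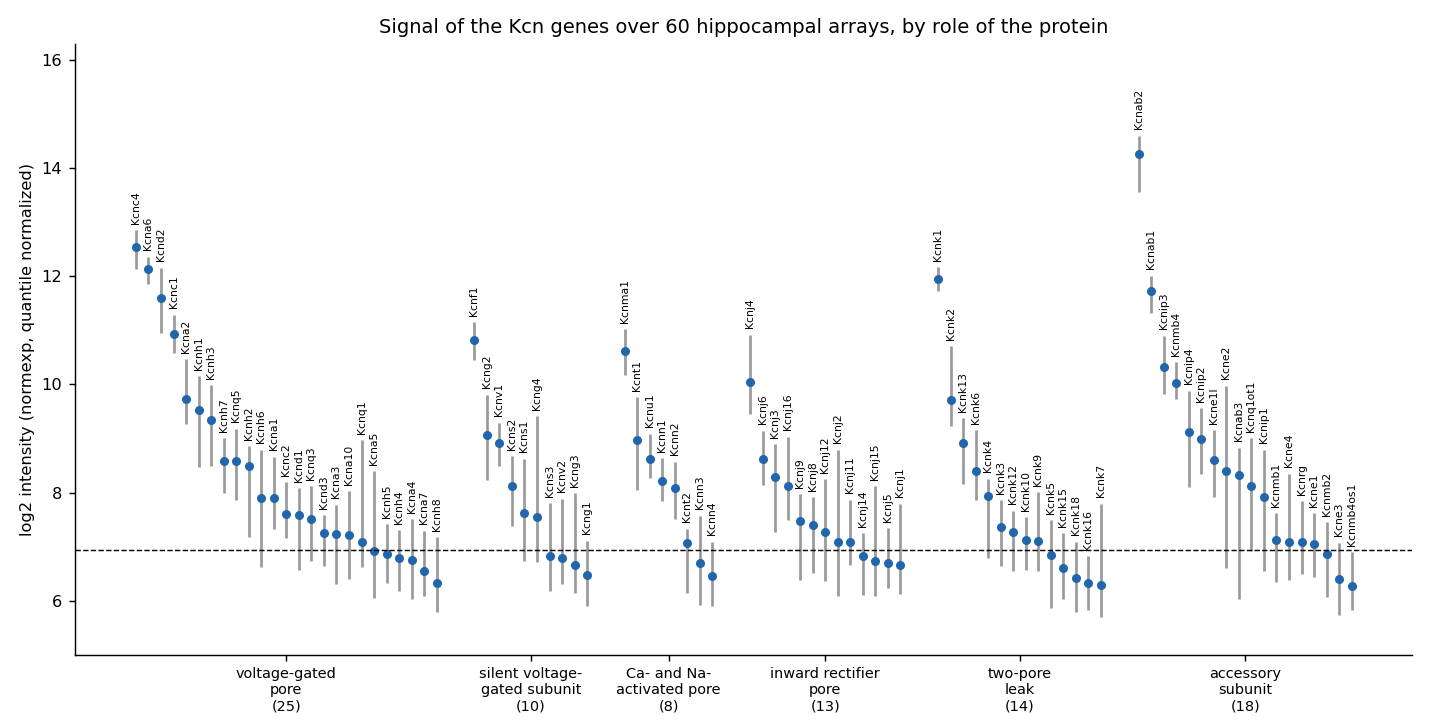
Signal of the 88 Kcn genes (brightest probe of each) on the log2 scale, grouped by role, with the number of genes in parentheses. The accessory group also holds the RNA genes *Kcnq1ot1* and *Kcnmb4os1*, which are not subunits. Points are means over 60 arrays, lines run from the lowest to the highest array, and the dashed line marks the median of all probes, 6.94. The widest range is that of *Kcne2*, from 6.60 to 9.98.

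Around the group means, the SD of a gene over the 60 arrays had a median of 0.252. *Kcne2*, an accessory subunit, stood apart with an SD of 0.95. The next were *Kcnab3*, a Kv1 beta subunit, with 0.45, *Kcnj2* (Kir2.1) with 0.43, *Kcnip4*, a Kv4 partner, with 0.37, *Kcnj15* with 0.36 and *Kcnk7* with 0.35. Single arrays made part of this spread. *Kcnab3* had 6.04 on 1 of the 7 arrays of high background (memantine, 8 h, replicate 3) and 6.95 on another (saline, 2 h, replicate 3), and its remaining values lay between 7.73 and 8.83.

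None of the 88 genes passed an adjusted p of 0.05 (limma, Benjamini-Hochberg over all probes) with ketamine, memantine or PCP against saline over the 4 times. Of all probes, 0.00221% passed with ketamine, 0.0243% with memantine and 0.00221% with PCP. At an unadjusted p under 0.05, 5 genes passed with ketamine (6.55% of all probes did, and 5.68% of the Kcn genes), 7 with memantine (3.48% of all probes, 7.95% of the Kcn genes) and 4 with PCP (3.82% of all probes, 4.55% of the Kcn genes). The unadjusted threshold of the study, p under 0.0005 with a log2 difference over 0.3 at 1 time or more, was passed by 0 Kcn genes with each drug and by 0.053%, 0.0751% and 0.0243% of all probes with ketamine, memantine and PCP. The median difference of the 88 genes was 0.0045 with ketamine, 0.0133 with memantine and 0.0201 with PCP, beside 0.00325, 0.00153 and 0.00252 over all probes.

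The precision of these differences was measured by their 95% intervals, which had a median half-width of 0.194 with ketamine, 0.214 with memantine and 0.207 with PCP. For 87 of the 88 genes the whole interval lay within a 2-fold change in either direction with each drug, and for 87, 83 and 84 genes it lay within 0.5 on the log2 scale with ketamine, memantine and PCP. The gene outside the 2-fold bound was *Kcne2*. *Kcnj9* (GIRK3), which the study lists, had a mean difference over the times of -0.08 with ketamine (95% interval -0.22 to 0.06). It was -0.13 with memantine (-0.31 to 0.06) and 0.02 with PCP (-0.14 to 0.18). The study used analyses of variance on its own normalized values and asked for a difference at any single time. The gene has 2 probes, and only the brightest is given here, without its single times. These means therefore do not test the study's listing, whose drug and tissue are not given here.

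With ketamine, the 5 genes of lowest p were 2 accessory genes, a silent subunit, a voltage-gated pore and a two-pore channel. *Kcne2* had a difference of -0.86 ± 0.31 (SE), and *Kcnv2*, a silent subunit known from the retina, -0.28 ± 0.10. *Kcnd1*, a Kv4 pore, had 0.26 ± 0.09 and its partner *Kcnip2* (KChIP2) -0.27 ± 0.10, while *Kcnk6* (TWIK-2), a two-pore leak channel, had 0.19 ± 0.08. All 5 had an adjusted p of 0.754 in limma. The 12 ketamine arrays had 7.58 as the lowest, 7.69 as the median and 7.94 as the highest value of *Kcnd1*, against 6.57, 7.55 and 7.89 on the 12 saline arrays. *Kcnip2* had 8.35, 8.80 and 9.26 with ketamine, against 8.76, 8.97 and 9.47 with saline, so the conditions overlapped for both genes. The second probe of *Kcnd1* gave a ketamine difference of 0.04.

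With memantine, 6 of the 7 genes under an unadjusted p of 0.05 had lower values than with saline (1.69% of all probes were lower at this threshold). *Kcnip3* had the lowest p, with a difference of -0.30 ± 0.10 (SE). Its lowest, median and highest values were 9.83, 10.16 and 10.50 over the 12 memantine arrays, against 9.98, 10.46 and 10.90 over the 12 saline arrays. With the slide as a block the difference was -0.20 (adjusted p = 1, limma). *Kcnip3* also had -0.14 with ketamine and -0.13 with PCP (adjusted p = 0.80 with ketamine and 1 with PCP, limma). Naive mice had a median *Kcnip3* value of 10.28, below that of the saline mice.

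*Kcnj4*, an inward rectifier of forebrain neurons, had a difference of -0.28 ± 0.10 with memantine, with 9.50, 9.84 and 10.31 as its lowest, median and highest values against 9.57, 10.17 and 10.51 with saline. The second, dimmer probe of *Kcnj4* gave 0.00 for the same comparison. Over the 60 arrays the deviations of *Kcnj4* from its group means had r = 0.63 with those of the striatal markers. With those of the pyramidal and granule cell markers they had r = -0.60. Both are descriptions over arrays that share slides and tissue pools. The ketamine array with the striatal marker mean of 11.75 also had the highest *Kcnj4* value, 10.92, and neither r was computed without it. The memantine arrays had striatal marker means of 8.69 to 9.16, and the saline arrays 8.74 to 9.13, and the part of tissue composition in the *Kcnj4* difference was not tested. The other genes with lower values were the silent subunits *Kcnv1* (-0.19 ± 0.08) and *Kcns1* (-0.21 ± 0.10), the intermediate-conductance calcium-activated channel *Kcnn4* (-0.24 ± 0.11), and *Kcne2* (-0.59 ± 0.29). *Kcnk6* had a positive difference, 0.22 ± 0.09. The adjusted p of all 7 genes was 1 in limma.

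With PCP, *Kcne2* had a difference of -0.82 ± 0.29 (SE). The next in p were *Kcnq1* (KvLQT1, the pore of the slow cardiac delayed rectifier) with 0.23 ± 0.10, *Kcnh6* (an erg channel) with 0.23 ± 0.10, *Kcna10*, a Kv1 channel, with 0.25 ± 0.12 and *Kcnmb2*, a BK channel beta subunit, with -0.26 ± 0.13. The lowest, median and highest values of *Kcnq1* were 6.93, 7.20 and 7.91 with PCP, against 6.65, 6.96 and 7.30 with saline. The ranges of the conditions overlapped for each of these genes, and each had an adjusted p of 1 in limma. With naive mice as the control, the PCP difference of *Kcnq1* was -0.01, and it was 0.16 without the naive array of high background, on which *Kcnq1* had 8.97.

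At single times, where 3 arrays of a drug are set against 3 of saline, 0 Kcn genes passed an adjusted p of 0.05 with any drug at any time (limma). Over all probes, 0.00442% passed at 1 time or more with ketamine, 0.064% with memantine and 0.00221% with PCP. At an unadjusted p under 0.05, 2, 6, 0 and 2 Kcn genes passed with ketamine at 1, 2, 4 and 8 h (2.84%, 7%, 2.11% and 0.994% of all probes). With memantine 2, 9, 4 and 7 passed (2.35%, 10.6%, 2.76% and 6.93% of all probes), and with PCP 6, 8, 1 and 1 (4.45%, 8.4%, 3.88% and 3.1%). Each drug had its highest count at 2 h, and so did the shares of all probes. The saline group of 2 h is common to these 3 comparisons, and 1 of its arrays (replicate 3) had high background.

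**Figure D2:**
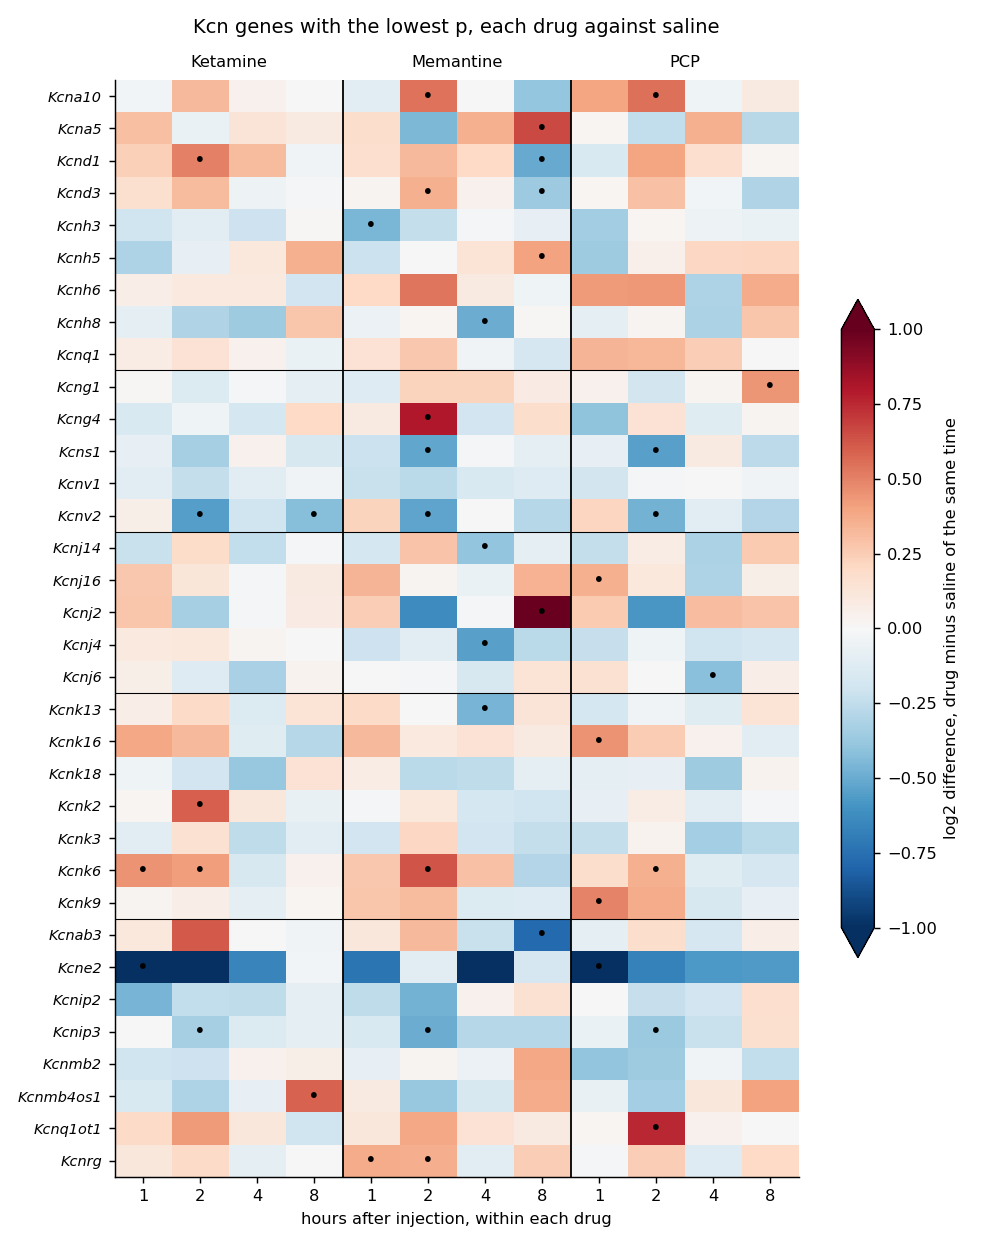
Log2 difference between each drug and saline of the same time for the Kcn genes of lowest p, in rows ordered by role (voltage-gated pore, silent subunit, inward rectifier, two-pore and accessory genes, divided by lines). Columns are the 4 times within ketamine, memantine and PCP, dots mark an unadjusted p under 0.05, and colours stop at 1 in both directions, which *Kcne2* exceeded with -1.72 at 1 h of ketamine. No cell passed an adjusted p of 0.05.

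*Kcnk6* had the lowest p of any Kcn gene at a single time, with memantine at 2 h (adjusted p = 0.113, limma). At 1 h its values were 8.64, 8.67 and 8.78 with ketamine, 8.47, 8.50 and 8.57 with memantine and 8.17, 8.26 and 8.84 with PCP, against 8.05, 8.15 and 8.54 with saline. At 2 h they were 8.60, 8.68 and 8.85 with ketamine, 8.67, 8.92 and 9.15 with memantine and 8.56, 8.62 and 8.75 with PCP, against 8.15, 8.25 and 8.46 with saline. All 9 drug arrays of 2 h were above all 3 saline arrays and above the naive arrays of that time (8.22, 8.31 and 8.41). The drugs share these saline arrays, and the share of all probes without such overlap is not given. The lack of overlap is therefore not read as a trait of *Kcnk6*. The differences from saline were 0.45, 0.42, -0.16 and 0.04 with ketamine at 1, 2, 4 and 8 h, 0.27, 0.63, 0.29 and -0.30 with memantine, and 0.17, 0.35, -0.12 and -0.17 with PCP. At 8 h the memantine arrays (8.11, 8.16 and 8.20) were below the saline arrays (8.33, 8.35 and 8.69).

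**Figure D3:**
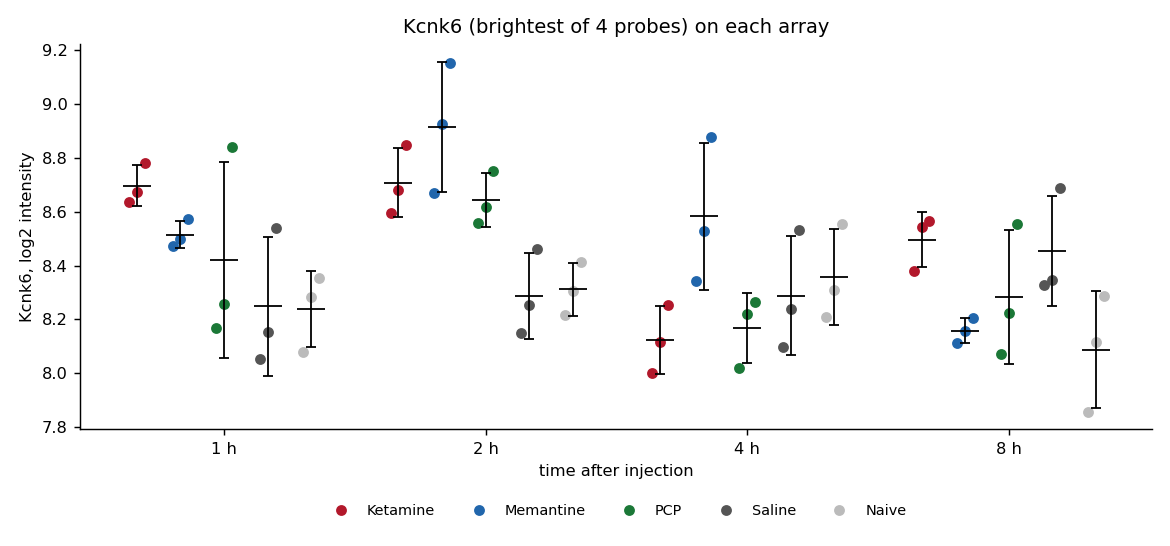
*Kcnk6* on every array, in log2 intensity, by time after injection. Points are the 3 arrays of a group, bars are mean ± SD, and within each time the groups run from ketamine, memantine and PCP to saline and naive mice. At 2 h the memantine arrays lie between 8.67 and 9.15 and the saline arrays between 8.15 and 8.46.

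The 3 other probes of *Kcnk6*, which the annotation assigns to the same transcript, did not have this course. For memantine at 2 h they gave 0.11, 0.18 and -0.18, against 0.63 for the brightest, and for ketamine at 1 h they gave 0.22, -0.05 and 0.00, against 0.45. The mean over the 4 probes gave 0.18 for memantine at 2 h. No slide held memantine and saline arrays of the same time, so that within-slide values would mix drug and time. With the slide as a block, the brightest probe gave 0.58 for memantine at 2 h (adjusted p = 0.264, limma). Without 1 saline array of 2 h (replicate 1), the memantine difference of *Kcnk6* at 2 h was 0.71 (adjusted p = 0.0357, limma). *Kcnrg*, a regulator that binds Kv subunits, passed too with 0.65 (adjusted p = 0.033), while 459 of all probes passed. Without any other memantine or saline array of 2 h, *Kcnk6* had an adjusted p of 0.0571 to 0.361 (limma). Its difference was 0.56 without the saline array of high background (replicate 3).

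Other single-time values turned on 1 array. *Kcnk2* had a ketamine difference of 0.60 at 2 h (adjusted p = 0.525, limma), from 9.64, 10.04 and 10.71 with ketamine, against 9.39, 9.58 and 9.63 with saline. The array with 10.71 was the one with the striatal marker mean of 11.75, and without it the difference was 0.31. The same array gave the highest value of *Kcnj4*, 10.92. The striatal markers themselves had a median ketamine difference of 1.09 at 2 h, with 6 of 6 under an unadjusted p of 0.05.

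*Kcnj2*, the classical strong inward rectifier, had a memantine difference of 0.99 at 8 h (adjusted p = 0.654, limma), with 7.02, 7.21 and 8.80 with memantine, against 6.09, 6.85 and 7.13 with saline. The value of 8.80 lay on the memantine array of high background, without which the difference was 0.43. *Kcnab3* had -0.78 at the same time, and without that array -0.01. *Kcng4*, a silent subunit, had 0.80 with memantine at 2 h, from 7.40, 7.74 and 9.41 with memantine, against 6.74, 7.61 and 7.80 with saline, and 0.19 without the memantine array of 9.41 or 0.48 without the saline array of 6.74, which had high background. The memantine array of 9.41 also had the highest mean of the interneuron markers, 12.49 where the next array had 12.22. Over the 60 arrays *Kcng4* had r = 0.54 with these markers and 0.48 with the astrocyte markers (deviations from group means). Neither r was computed without that array. The part of these markers in the *Kcng4* difference was not tested.

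*Kcnq1ot1*, a long noncoding RNA of the imprinted *Kcnq1* locus, had a PCP difference of 0.75 at 2 h (adjusted p = 0.335, limma). Its values were 8.21, 8.22 and 8.79 with PCP, against 6.92, 7.77 and 8.27 with saline. Without the saline array of high background the difference was 0.39, and without another saline array (replicate 1) it was 1.07 (adjusted p = 0.0167, limma), with 273 of all probes passing. Without any other PCP or saline array of 2 h, *Kcnq1ot1* had an adjusted p of 0.273 to 0.848 (limma). *Kcnv2* had -0.55 with ketamine, -0.53 with memantine and -0.47 with PCP at 2 h. Its saline arrays of that time were at 6.83, 7.0 and 7.88, and the array of 7.88 was again the one of high background, without which the ketamine difference was -0.23.

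For *Kcnip3*, *Kcnj4*, *Kcnj6* and *Kcna10*, the drug and saline arrays did not overlap at a single time. The same held for *Kcnk2*, *Kcnk6*, *Kcnk9*, *Kcnk13* and *Kcnmb4os1* with a drug and time given for each elsewhere in the text. The share of all probes without overlap is not given, so a lack of overlap is not read as a trait of these genes. *Kcnip3* had 9.98, 10.10 and 10.20 with memantine at 2 h, against 10.39, 10.56 and 10.81 with saline, a difference of -0.49 (adjusted p = 0.233, limma). *Kcnj4* had 9.50, 9.68 and 9.78 with memantine at 4 h, against 9.96, 10.31 and 10.32 with saline, and its second probe gave -0.04 where the brightest gave -0.54. Both genes belong to those with lower values over the 4 times of memantine.

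*Kcnj6* (GIRK2) had 8.21, 8.51 and 8.65 with PCP at 4 h and 8.39, 8.57 and 8.70 with ketamine, against 8.83, 8.84 and 8.97 with saline. The differences were -0.42 with PCP and -0.33 with ketamine, each with an adjusted p of 1 in limma. The gene has 6 probes, and a second probe gave 0.16 for PCP at 4 h, in disagreement with the brightest. The other probes are not given here. *Kcna10* had 7.31, 7.39 and 7.49 with memantine and 7.26, 7.35 and 7.59 with PCP at 2 h, against 6.61, 6.80 and 7.13 with saline, and its dimmer probe gave -0.30 for PCP.

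*Kcns1* differed by -0.52 with memantine and -0.55 with PCP at 2 h, where its saline arrays had 7.6, 7.81 and 8.63, the last on the array of high background. *Kcnmb4os1*, an RNA antisense to the BK subunit gene *Kcnmb4*, had 6.12, 6.51 and 6.79 with ketamine at 8 h, against 5.82, 5.88 and 5.95 with saline, all below the median of all probes. *Kcnk9* (TASK-3) differed by 0.50 with PCP at 1 h (adjusted p = 0.996, limma), with 7.12, 7.22 and 8.0 on the PCP arrays against 6.86, 6.92 and 7.06 on the saline arrays, and the PCP array of 8.0 was one of high background.

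The course from 1 to 8 h was tested over the 48 arrays of the drugs and saline together, as a time factor. *Kcnk13* passed an adjusted p of 0.05 (adjusted p = 0.0323, limma) and was the only one of the 88 genes to do so, where 0.258% of all probes passed, and 5 Kcn genes passed an unadjusted 0.05 (5.68%, beside 5.79% of all probes). *Kcnk13* encodes THIK-1, a tonically active two-pore channel known in mice as the main potassium channel of microglia. At 8 h it was lower than at 1 h (SE of the difference 0.08, adjusted p = 0.0267, limma, where 0.203% of all probes passed this contrast). Its differences from 1 h were -0.08 at 2 h, -0.29 at 4 h and -0.34 at 8 h.

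The 12 arrays of 1 h had a mean *Kcnk13* value of 9.08 ± 0.19 (SD), those of 2 h 9.0 ± 0.17, those of 4 h 8.80 ± 0.25 and those of 8 h 8.74 ± 0.14. At 1 h the values were 8.94, 9.17 and 9.27 with ketamine, 9.17, 9.25 and 9.34 with memantine and 8.72, 8.83 and 9.11 with PCP, and 8.94, 9.12 and 9.14 with saline. At 8 h they were 8.70, 8.75 and 8.86 with ketamine, 8.65, 8.78 and 8.87 with memantine and 8.64, 8.77 and 8.92 with PCP, and 8.47, 8.55 and 8.89 with saline. The ranges of 1 h and 8 h did not overlap with ketamine, memantine or saline, and overlapped with PCP. Naive mice had 8.88, 9.0 and 9.34 at 1 h and 8.17, 8.73 and 8.99 at 8 h, where 8.17 lay on an array of high background.

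**Figure D4:**
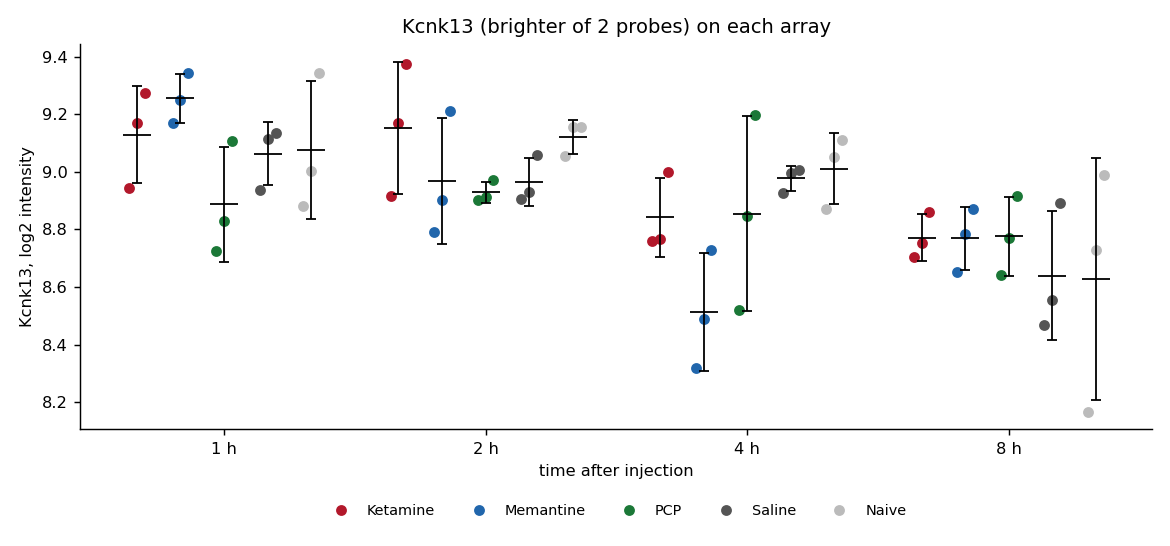
*Kcnk13* on every array, in log2 intensity, by time after injection. Points are the 3 arrays of a group and bars are mean ± SD, with ketamine, memantine and PCP left of saline and naive mice at each time. The 12 arrays of the drugs and saline averaged 9.08 at 1 h and 8.74 at 8 h.

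Each drug was also set against saline at 4 h. *Kcnk13* had 8.32, 8.49 and 8.73 with memantine at 4 h, against 8.93, 9.0 and 9.01 with saline, a difference of -0.46 (adjusted p = 1, limma) without overlap. The ketamine difference at 4 h was -0.13 and the PCP difference -0.12. The interaction of drug and time had an adjusted p of 1 for *Kcnk13* (limma), so that a difference between the courses did not pass the test.

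The call of *Kcnk13* depended on the setting. Arrays of both 1 h and 8 h lay on 8 slides, and 8 h was lower than 1 h on 7 of them, with a median of -0.31 (these differences mix drugs and saline), but with the slide as a block the adjusted p was 0.124 (limma) for a difference of -0.32. Leaving out 1 array at a time, the call held for 32 of 48 arrays and was lost for 16, and the adjusted p ranged from 0.00819 to 0.0769. The 16 were 8 arrays of 1 h (ketamine 1 and 3, memantine 1 and 3, PCP 2 and 3, saline 1 and 3), 7 of 8 h (ketamine 1 and 3, memantine 1, PCP 2 and 3, saline 2 and 3) and 1 of 4 h (ketamine 3), by replicate number. The second probe of the gene, designed on a different transcript and with a mean signal of 6.36, below the median of all probes, gave -0.09. The 8 markers of microglia averaged 9.04 at 1 h and 9.04 at 8 h over the same arrays, and 0 of 8 passed an unadjusted p of 0.05 for time. In all these marker counts, p is that of the time factor (2, 4 and 8 h against 1 h together), where 5.79% of all probes passed an unadjusted 0.05. Only the direction is that of 8 h against 1 h. Of 9 astrocyte markers, 8 were lower at 8 h than at 1 h, and 4 lower and 1 higher passed an unadjusted 0.05, with list means of 11.60 at 8 h and 11.71 at 1 h. Of 9 markers of endothelium and mural cells, 7 were lower and 3 of them passed an unadjusted 0.05, with list means of 9.36 at 8 h and 9.43 at 1 h. Of 7 thalamus markers 6 were lower, with a median of -0.144 and 0 past an unadjusted 0.05. Of 7 oligodendrocyte markers 6 were lower, with a median of -0.0953 and 1 past an unadjusted 0.05. All 8 choroid plexus markers were higher, with 0 past an unadjusted 0.05. None of the markers in these lists passed an adjusted 0.05 (limma), and their part in the *Kcnk13* course was not tested. Over all 60 arrays the deviations of *Kcnk13* and of the microglial markers had r = -0.06, and with the astrocyte markers r = 0.24. With the striatal markers r was 0.29, with the thalamus markers 0.18 and with the oligodendrocyte markers 0.11. With the 24 measured genes that work with potassium channels, described below, it was 0.31.

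The time factor had 4 further genes at an unadjusted p under 0.05. *Kcnk6* (adjusted p = 0.148, limma) had 0.17, -0.18 and -0.12 for 2, 4 and 8 h against 1 h. *Kcnk5* (TASK-2, a leak channel gated by alkaline pH) had -0.07, -0.39 and -0.23 (adjusted p = 0.327), and *Kcnh6* had 0.24, 0.21 and 0.42 (adjusted p = 0.573). *Kcnq1ot1* had -0.14, -0.16 and 0.17 (adjusted p = 0.793). Without the 7 arrays of high background, *Kcnk5* passed too (adjusted p = 0.0398), but its other 2 probes gave 0.09 and 0.04 for 8 h against 1 h, where the brightest gave -0.23. Without 1 memantine array of 8 h (replicate 1), *Kcnh6* at 8 h was 0.50 above 1 h (adjusted p = 0.031 for this contrast alone, limma), with 82 of all probes passing. For the time factor, its adjusted p was 0.157 to 0.884 (limma) when each of 48 arrays was left out in turn. *Kcnh6* has 3 probes, and only the brightest is given here.

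The promoters of *Kcnk13* and *Kcnk5*, which passed the time factor with all arrays or without those of high background, are shown with motifs that are known from genes of daily rhythm (E-box, D-box) and of cAMP signalling (CRE), since the course over time is the result these genes have in common. They run from 250 bases before to 50 bases after the RefSeq start site (GRCm38.p6). Capitals mark an E-box (CACGTG), and neither a D-box (TTATGTAA) nor a CRE (TGACGTCA) occurs on either strand.
Kcnk13, chr12:99964249-99964548, plus strand: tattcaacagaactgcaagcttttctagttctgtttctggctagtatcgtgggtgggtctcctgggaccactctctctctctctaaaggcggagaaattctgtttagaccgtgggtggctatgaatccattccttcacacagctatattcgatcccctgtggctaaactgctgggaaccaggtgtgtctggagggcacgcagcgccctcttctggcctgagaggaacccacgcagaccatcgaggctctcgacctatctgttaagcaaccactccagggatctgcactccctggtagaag
Kcnk5, chr14:20181733-20182032, minus strand: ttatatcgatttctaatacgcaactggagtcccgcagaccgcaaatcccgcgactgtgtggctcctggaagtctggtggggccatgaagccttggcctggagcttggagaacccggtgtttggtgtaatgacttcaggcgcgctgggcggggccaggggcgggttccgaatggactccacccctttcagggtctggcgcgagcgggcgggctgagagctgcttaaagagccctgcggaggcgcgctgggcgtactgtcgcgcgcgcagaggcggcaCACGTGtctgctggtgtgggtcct
The window of *Kcnk5* holds 1 E-box, downstream of the start, and that of *Kcnk13* holds none. Of all 32851 promoters in the table, 7.15% hold an E-box, as do 7 of the 92 promoters of Kcn genes (7.61%), which belong to 67 of the 88 genes. A D-box was found in 0.938% and a CRE in 1.79% of all promoters, and in 0 of the 92.

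Naive mice, which had no injection, were outside the fit of the time factor. Their *Kcnk13* mean was 8.63 at 8 h, against 9.08 at 1 h, with overlapping arrays, and the part of time of day in the course was not tested. In the 24 arrays of saline and naive mice alone, *Kcnk13* at 8 h against 1 h gave -0.44 (adjusted p = 0.999 for the time factor, limma). The interaction of drug and time called 0 of 88 genes (0% of all probes), and 2 passed an unadjusted 0.05 (2.76% of all probes), *Kcnk6* and *Kcnj2*, each with an adjusted p of 1 in limma.

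Saline and naive mice were compared over 24 arrays. None of the 88 genes passed an adjusted p of 0.05 (limma, 0.00221% of all probes), and 5 passed an unadjusted 0.05 (3.28% of all probes), all with higher values in saline mice (1.81% of all probes). *Kcne2* had a difference of 0.85 ± 0.16 (SE, adjusted p = 0.402, limma). The others were *Kcnh2* (the erg channel of the heart) with 0.26, *Kcna4* (an A-type Kv1 channel) with 0.24, *Kcnh3* (a forebrain channel of the elk family) with 0.25 and *Kcnk18* (TRESK) with 0.24. With the slide as a block in the same 24 arrays 7 Kcn genes passed, *Kcne2* and *Kcnh2* among them, while 1474 of all probes passed, and in a fit of all 60 arrays with that block 0 Kcn genes passed.

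*Kcne2* encodes MiRP1, a single-pass subunit that in the mouse brain is known from the epithelium of the choroid plexus, where it works with Kv channels and *Kcnq1*. Its values ran from 6.61 to 9.71 with ketamine (median 8.30), 6.91 to 9.98 with memantine (median 8.60) and 6.60 to 9.50 with PCP (median 8.55), against 8.14 to 9.86 with saline (median 9.07) and 6.71 to 9.59 in naive mice (median 8.46). The saline mice thus had no array in the low part of the range that the other conditions reached. The mean of 8 measured choroid plexus markers moved with it, from 7.86 to 10.94 with ketamine, 7.91 to 11.15 with memantine and 7.70 to 10.69 with PCP, against 9.05 to 11.05 with saline and 7.80 to 10.71 in naive mice. The deviations of *Kcne2* and of this mean from their group means had r = 0.98 over the 60 arrays, as a description, since the points share slides and each lies on its own array. In bulk tissue, fewer cells of a type and less RNA per cell cannot be told apart.

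**Figure D5:**
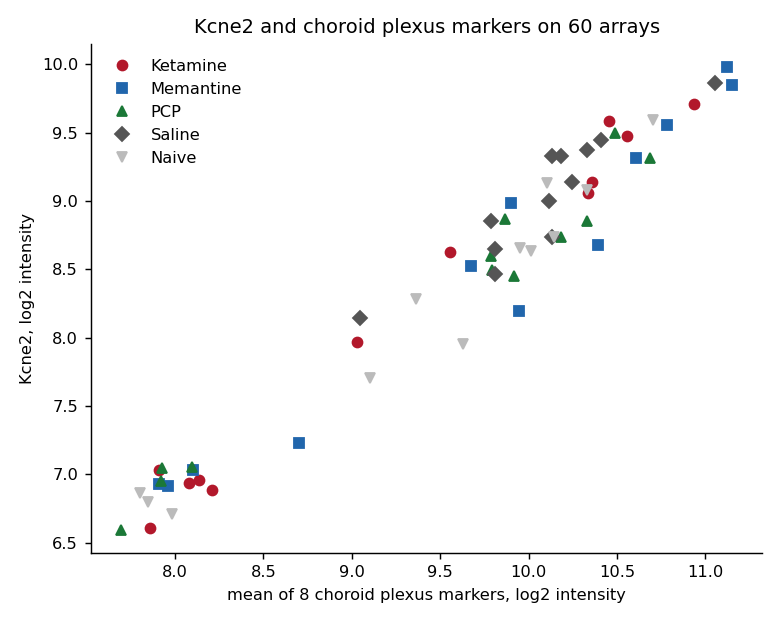
*Kcne2* against the mean of 8 choroid plexus markers on the 60 arrays, both in log2 intensity, with a symbol for each of ketamine, memantine, PCP, saline and naive mice. The points lie along 1 line (r = 0.98 for the deviations from group means), and the 12 saline arrays lie at 8.14 and above for *Kcne2*.

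All 8 choroid plexus markers had lower values than saline with each drug over the 4 times. Their median difference was -0.70 with ketamine, -0.365 with memantine and -0.63 with PCP. At an unadjusted p under 0.05, 7 of them were lower with ketamine, 1 with memantine and 3 with PCP. The shares of all probes were 3.1%, 1.69% and 1.91% (limma). All 8 were higher in saline than in naive mice, by a median of 0.63, and all 8 passed an unadjusted 0.05 (1.81% of all probes were higher). There 1 of the 8 passed an adjusted p of 0.05 (limma), where 0.00221% of all probes passed. With the marker mean as a covariate, the *Kcne2* difference was -0.06 with ketamine, -0.22 with memantine, -0.21 with PCP and 0.11 for saline against naive mice. With naive mice as the control it was -0.01, 0.25 and 0.03 for ketamine, memantine and PCP. Against saline with the slide as a block it was -0.73 with ketamine, -1.02 with memantine and -0.67 with PCP, none past an adjusted p of 0.05 (limma).

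Genes that work with these channels but have other symbols were read as a list of 29, of which 24 were measured. They included the sulfonylurea receptors of KATP channels, Kv4 partners such as *Dpp6* and *Dpp10*, HCN pacemaker channels, the sodium-potassium pump and potassium-chloride cotransporters. With each drug over the 4 times, at every single time, for the time factor and for saline against naive mice, 0 of the 24 passed an adjusted p of 0.05 (limma). At an unadjusted p under 0.05, 1 had higher values with ketamine, 0 passed with memantine, and with PCP 2 had higher and 1 had lower values (of all probes, 3.44% were higher with ketamine, and 1.91% higher and 1.91% lower with PCP). Their median difference was -0.00 with ketamine, -0.03 with memantine and 0.01 with PCP, beside 0.00325, 0.00153 and 0.00252 over all probes.

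Among the 88 genes, deviations from group means were compared for all 3828 pairs over the 60 arrays, as a description. The absolute r had a median of 0.158 and was above 0.6 for 30 pairs. The same share over pairs of other genes is not given, so these values are not read as a trait of Kcn genes. The highest was 0.745 for *Kcnab1* and *Kcnd2*, followed by -0.70 for *Kcnab3* and *Kcnj1* and 0.70 for *Kcna1* and *Kcnip4*. Part of this spread lay between slides. The share of the variance between slides was 71.3% for *Kcnab1*, 66.8% for *Kcnd2* and 64.6% for *Kcnma1*, 8.95% for *Kcne2* and 9.76% for *Kcnk13*, with a median of 27.4% over the Kcn genes and 29.1% over all probes.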

How the data were processed

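Hippocampal RNA of 60 pools of 2 mice was hybridized to Illumina MouseWG-6 v2 arrays. The authors deposited mean bead intensities from BeadStudio 3.0 on a linear scale, neither background subtracted nor scaled between arrays, and a table of normalized log2 values made with BeadArray 2.14.1, also deposited, which was used as an alternative only.

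The intensities were corrected with normexp (offset 50), quantile normalized and log2-transformed, with all probes kept, in R 4.3.3 with limma 3.58.1. Symbols came from the platform annotation, where 34885 probes had 1 symbol, 18 several and 10378 none. Groups came from the sample labels and slides from the order of the samples. Each drug was set against saline over their 24 arrays as the mean of the differences at 4 times. Single times were fitted over all 60 arrays, and the time factor and its interaction with drug in 48 arrays (3 drugs and saline). Saline against naive mice used 24 arrays. P-values were adjusted by the Benjamini-Hochberg method across all 45281 probes. Each array of a group is a separate pool, and precision is limited by their number. The fits were first tested on simulated data with known changes.

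The Kcn genes and all gene lists were chosen with earlier results of these data known. Named genes are those past an adjusted p of 0.05 or the study's threshold, the 5 of lowest p in each comparison (3 at each single time), *Kcnj9*, the 6 of largest SD and up to 3 of highest signal in each role. *Kcnrg* was named at single times by this rule, and *Kcnn4*, *Kcna1* and *Kcnj1* were added once their values were known. The numbers of the replicates do not link arrays across groups, as of 48 pairs of a treated or naive array with the same-numbered saline array, 4 had correlated deviations above 0.1. The alternatives were no background correction, an offset of 16, the authors' values, a filter that kept the brighter 50% of probes, a block for the slide or for the replicate number, trended and robust variances, the mean of a gene's probes, leaving out the 7 arrays of high background or each array in turn, a choroid plexus covariate, all 60 arrays or only naive and saline arrays in 1 fit, a comparison with naive in place of saline mice, and, added after the data were seen, the slide block in a fit of all 60 arrays for saline against naive mice and the naive control without its array of high background.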

Additional observations from a re-analysis of the deposited data

How the results depend on the processing

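No Kcn gene was called with a drug over the 4 times, or by the interaction, under any alternative. The count of Kcn genes called for the time factor, 1, became 0 with the slide as a block, 0 with the mean of a gene's probes, 0 in naive and saline mice alone and 2 without the 7 arrays of high background, and it ranged from 0 to 1 when single arrays were left out. For saline against naive mice the count was 7 with the slide as a block, and 0 to 0 without single arrays. Counts at single times ranged from 0 to 2 with memantine and 0 to 1 with PCP without single arrays, and were 0 to 0 with ketamine. *Kcne2* changed sign with naive mice as the control, to 0.027 with PCP and 0.25 with memantine, and also without the naive array of high background (0.011 with ketamine, 0.28 with memantine, 0.051 with PCP), and so did *Kcnq1* with PCP (-0.0083, but 0.16 without that array). *Kcnk6* changed sign for 8 h against 1 h in naive and saline mice (0.027) and for PCP with the mean of its probes (-0.022). *Kcnk13* gave -0.32 (adjusted p = 0.124, limma) with the slide as a block and -0.22 (adjusted p = 0.259) with the mean of its probes. With the replicate block, the time factor called 1 gene, *Kcnk13*, and no call changed. The replicate numbers gave a mean correlation of -0.03 for same-numbered arrays and 0.02 for others. Arrays of the same assigned slide had 0.187 and arrays of other slides -0.02, which the fits without a slide block do not model. Over all probes the time factor called 117, but 200 without background correction, 180 with the values the authors normalized, 183 among the brighter 50% and 18 in naive and saline mice. The cause of these changes was not tested. Dim probes, 24 of 88 genes at or below the median probe, limit what small differences can show.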
